A study of Mus musculus with 90 samples.

Results

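The 23 frontal cortex arrays from APP/PS1 mice given the CD33 ASO, of 90 arrays in the series, were ordered by how much Cd33 transcript each still showed, and every other named gene was related to that order. The arrays were taken by their titles, 14 from 28 days and 9 from 14 days of infusion. Cd33 was read from the brighter of its 2 probes as a normalised log2 signal, so Cd33 itself set the order. Its levels by group are described, and its relations to other measures of the same arrays and animals were tested. The relation of a gene to Cd33 is given as a slope, the difference in that gene's log2 signal for each log2 unit of higher Cd33 at the same duration and on the same chip. A negative slope therefore belongs to a gene that was higher where less Cd33 remained.

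CD33 is a sialic acid-binding receptor of the Siglec family on microglia and other myeloid cells, and it inhibits signals that pass through adaptor proteins such as TYROBP. Variants near its human gene are associated with the risk of Alzheimer disease. An antisense oligonucleotide (ASO) pairs with a transcript and leads to its degradation, and animals that receive the same ASO can keep different amounts of that transcript.

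All mice carried the APP/PS1 transgenes, which give amyloid plaques, and all received 40 µg of ASO per day in 6 µL from an osmotic pump that led into the right lateral ventricle, starting at 18 weeks of age. CD33 ASO mice were compared with mice on a non-target control, the CON ASO, at 28 and 14 days of infusion, and tissue from the left hemisphere was collected at 22 weeks in every group, so the 14-day mice had their pumps removed before collection. Besides the 23 CD33 ASO cortical arrays (14 at 28 days and 9 at 14 days), there were 23 from CON ASO cortex (also 14 and 9) and 22 from CD33 ASO hippocampus, and 21 CD33 ASO mice had both tissues. Each cortical array is a separate animal. No mice without the transgenes, without a pump or without an ASO were among the arrays used here.

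Among the CD33 ASO cortical arrays, the median raw signal of all probes and the share of probes detected (at a detection p-value under 0.01) lay between 30.7 and 46.0 and between 47.3% and 51.6%. Among genes of cortical excitatory neurons, mean log2 signals in CD33 ASO cortex and CD33 ASO hippocampus were 10.21 and 9.11 for Tbr1, 9.67 and 8.23 for Cux2 and 7.24 and 6.72 for Rorb, but 9.25 and 10.06 for Fezf2 and 13.08 and 13.28 for Slc17a7, which hippocampal neurons also express. Prox1, a gene of dentate granule cells, averaged 6.60 in cortex and 9.03 in hippocampus. The cortical piece also held striatal transcripts, with mean log2 signals of 12.87 in cortex and 10.52 in hippocampus for Ppp1r1b and of 12.63 and 9.70 for Rgs9. The 23 arrays were spread over 6 chips, with 3 to 4 on each. Replicate 12 of the 28-day CD33 ASO group stood against its label: Cd33 lay within the CON ASO range in its cortex (6.83, against 6.37 to 7.56 on CON ASO arrays) and in the hippocampus of the same animal (6.58, against 6.25 to 7.03). Replicates 11 and 1 at 28 days had cortical Cd33 as high, but hippocampal Cd33 of 5.77 and 5.09, below that range. The overall count of genes and the counts of several lists are given with and without replicate 12, and most other counts include it.

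Residual Cd33 varied widely. Cd33 ran over 4.97, 6.09 and 6.83 log2 units (lowest, median, highest) on the 28-day CD33 ASO arrays, against 6.37, 6.99 and 7.37 on the 28-day CON ASO arrays. It ran over 5.79, 6.40 and 6.64 on the 14-day CD33 ASO arrays, against 6.60, 7.08 and 7.56 on the 14-day CON ASO arrays. The 28-day CD33 ASO arrays were thus the most scattered (SD 0.52, n = 14, against 0.27, n = 14, on 28-day CON ASO arrays), and 11 of 14 CD33 ASO arrays at 28 days and 8 of 9 at 14 days lay below every CON ASO array of their duration.

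At 28 days, replicates 11, 1 and 12 formed the top end at 6.78 to 6.83. Cd33 was dim, detected on 10 of 14 CD33 ASO arrays at 28 days and on 9 of 9 at 14 days, against all 23 CON ASO arrays, so the low end of the order lies close to background. The lowest array, replicate 4 at 28 days, had a raw signal of 9.97 and a detection p-value of 0.165, so its value is only an upper bound. The slopes and Pearson coefficients below use that value as measured. Replicates 2, 6 and 7 at 28 days were the others without detection. The second Cd33 probe was detected on 0 of the 23 arrays and gave no check.

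**Figure D1:**
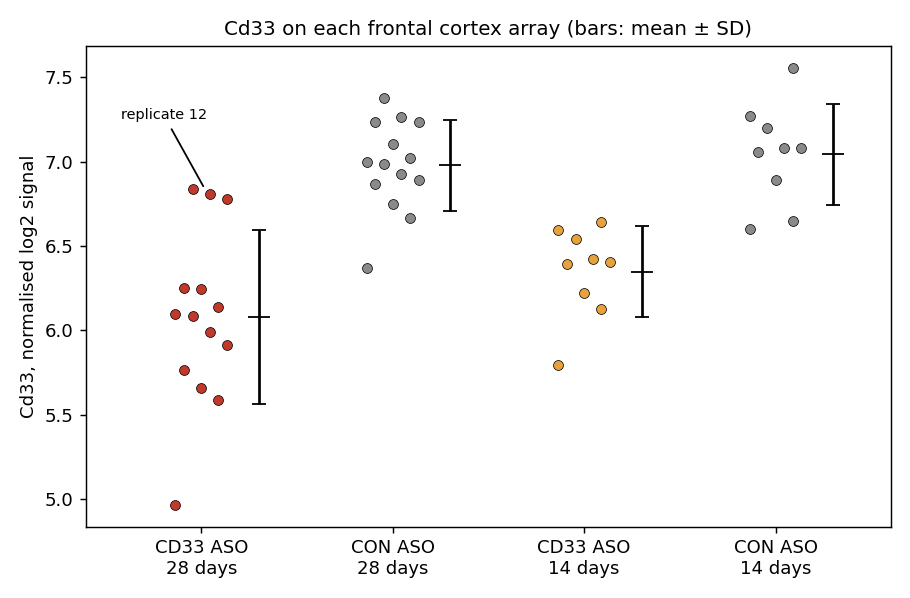
Each point is the normalised log2 signal of Cd33 on 1 frontal cortex array, with the mean and SD of each group beside it. The 28-day CD33 ASO arrays run from 4.97 to 6.83, and their top 3 arrays, replicate 12 among them, lie within the CON ASO range of 6.37 to 7.56.

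Chip and duration together accounted for 24.2% of the variance of Cd33 over the 23 arrays, with no correction for the number of terms fitted. Unrelated covariates of that number would also take up variance, so this share is not read as an effect of either. Cd33 was higher in mice whose hippocampus also kept more Cd33 (Pearson's r = 0.63, permutation p = 0.0026, adjusted 0.018; Spearman's rho = 0.70, permutation p = 0.00045, adjusted 0.0032; n = 21). The coefficient was 0.57 without the 2 of these animals farthest from their median cortical Cd33, replicates 4 and 12 at 28 days, and 0.58 without replicate 12. Replicate 2 at 28 days is not among the 21. Wherever the 2 farthest of all 23 arrays are left out below, they are replicates 4 and 2 at 28 days. Hippocampal Cd33 was detected in only 3 of these 21 animals. Adjustment was over 7 relations, and the permutations took no account of duration or chip. In the other 6, Cd33 was set against the detected share, the median signal and the mean log2 signals of microglial, red blood cell, choroid plexus and fibroblast genes, with r between -0.21 and 0.13 (adjusted permutation p 0.83 to 0.97) and rho between -0.25 and 0.14 (adjusted permutation p 0.73 to 0.93). In these bulk samples, fewer cells of a type and less RNA per cell cannot be told apart.

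Over the 9740 other genes, none passed an adjusted p of 0.05 in limma with duration and chip as covariates (0% of genes called), and the smallest adjusted p was 0.056. At an unadjusted p under 0.05, 452 genes had a negative slope (4.64%) and 499 a positive one (5.12%), 951 in all where 487 are to be expected by chance, and 9 genes had an adjusted p under 0.10. Without replicate 12 the count at the unadjusted threshold was 882, and without replicate 4 it was 682. The statements below on single genes therefore describe slopes that did not pass adjustment, and the genes at the top of each direction were picked by these same slopes. Permutation p-values printed for such genes are not adjusted for that choice, so they serve as descriptions only. Their permutations shuffled arrays across durations and chips.

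The 10 genes of smallest p with a negative slope were Avil, Gdpd3, Lgals3, Fkbp5, Samd14, C4b, Plin4, Slamf9, E2f2 and Nxn. They include proteins of phagocytes (Lgals3, Slamf9), of complement (C4b), of lipid droplets (Plin4) and of the glucocorticoid response (Fkbp5). Their slopes ranged from -1.55 to -0.32, with adjusted p-values from 0.073 to 0.12. E2f2 was dim, with a mean log2 signal of 5.66 on these arrays, close to background, and its second probe was detected on 0 of 23.

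Avil encodes advillin, an actin-binding protein of the villin family. Its log2 signal ran over 4.73, 7.10 and 8.47 (lowest, median, highest) on the 28-day CD33 ASO arrays and over 5.40, 6.05 and 7.49 on the 14-day CD33 ASO arrays, against 4.66, 4.83 and 5.44 and 4.64, 4.80 and 5.05 on CON ASO arrays at 28 and 14 days. At 28 days 11 of 14 CD33 ASO arrays lay above every CON ASO array, and at 14 days 9 of 9 did. The highest value belonged to replicate 4 at 28 days, which had the least Cd33, and the lowest to replicate 12, which had the most. Its slope was -1.46 ± 0.27 (SE, n = 23, adjusted p = 0.073). It was -1.25 without replicate 4 at 28 days and -1.35 without replicate 12 at 28 days. Pearson's r was -0.74 (permutation p = 5e-05) and Spearman's rho -0.72 (permutation p = 0.0002), with r = -0.67 once the 2 arrays farthest from the median Cd33 were left out, and the sign held on 5 of 6 chips. Avil was detected on 18 of 23 CD33 ASO arrays and on 0 of 23 CON ASO arrays. That gives a level at least 1.64-fold higher with the CD33 ASO, a bound from the lowest signal among detected probes that was not itself tested. The log2 difference as measured, with CON ASO values at background, was 1.61 ± 0.18 (adjusted p = 4.96e-07 in limma). As Avil was not well above background on any CON ASO array, its slope there is not read.

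Lgals3 encodes galectin-3, a sugar-binding lectin made by activated phagocytes. Its log2 signal ran over 7.90, 9.32 and 10.30 on the 28-day CD33 ASO arrays, against 9.58, 10.08 and 10.72 on the 28-day CON ASO arrays. At 14 days it ran over 7.95, 8.54 and 9.10 with the CD33 ASO, against 8.05, 9.44 and 10.32 with the CON ASO. At 28 days 9 of 14 CD33 ASO arrays, the 3 with the most Cd33 among them, lay below every CON ASO array, and the array with the least Cd33 had the highest Lgals3. The slope was -1.11 ± 0.21 (adjusted p = 0.073), r was -0.76 (permutation p = 4e-05), rho was -0.79 (permutation p = 1e-05, the smallest that the permutations can give), and r was -0.75 without the 2 farthest arrays. The sign held on all 6 chips, and the slope was -1.01 without replicate 4 at 28 days.

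Gdpd3, whose product is a phosphodiesterase that acts on lysophospholipids, ran over 5.58, 6.53 and 7.02 on the 28-day CD33 ASO arrays, against 5.48, 5.92 and 6.51 on the 28-day CON ASO arrays. It ran over 5.93, 6.42 and 6.61 on the 14-day CD33 ASO arrays, against 5.61, 5.97 and 6.52 on the 14-day CON ASO arrays. The groups overlapped, with 11 of 23 CD33 ASO arrays above every CON ASO array, and 8 of those 11 were among the 10 arrays with the least Cd33. Its slope was -0.64 ± 0.12 (adjusted p = 0.073), with the same sign on 6 of 6 chips and at both durations (r = -0.72 over the 28-day arrays, n = 14, and -0.67 over the 14-day arrays, n = 9, as a description). Without replicate 12 at 28 days the slope was -0.57.

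Fkbp5 and Plin4 answer to glucocorticoids in many tissues. Fkbp5, a co-chaperone that restrains the glucocorticoid receptor, ran over 7.71, 8.52 and 9.00 on 28-day CD33 ASO arrays and over 8.24, 8.37 and 8.61 on 14-day CD33 ASO arrays, against 8.06, 8.61 and 9.42 and 7.94, 8.30 and 8.95 on CON ASO arrays at 28 and 14 days. Its slope was -0.43 ± 0.08 (adjusted p = 0.088), but 0.09 over the 14-day arrays alone. Fits over the 14-day arrays alone, here and below, had no chip term, so they differ from the main fit in that too. Plin4, a perilipin that coats lipid droplets, ranged widely, from 5.62 to 9.54 on CD33 ASO arrays and from 6.04 to 10.02 on CON ASO arrays. Its slope was -1.55 ± 0.33 in CD33 ASO cortex and -1.52 ± 1.05 in CON ASO cortex, where the larger error left it at an unadjusted p of 0.17.

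The 10 genes of smallest p with a positive slope, lower where less Cd33 remained, were Kcnq5, Fam193b, Dpm1, Dlg4, Opalin, Arhgef2, Pigz, Cbln2, Iffo1 and Nphp4, with slopes from 0.27 to 0.67 and adjusted p-values from 0.056 to 0.13. Among them are neuronal and synaptic genes, Kcnq5 (a voltage-gated potassium channel subunit), Dlg4 (the postsynaptic scaffold PSD-95) and Cbln2 (a secreted synapse organiser), and the myelin gene Opalin. Dpm1 and Pigz encode enzymes that handle mannose in the making of glycoproteins and of membrane anchors. Iffo1 was dim, with a mean log2 signal of 5.46 on these arrays, close to background.

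Kcnq5 had the smallest p of all genes. Its log2 signal ran over 6.12, 6.70 and 7.03 on the 28-day CD33 ASO arrays and over 6.02, 6.59 and 6.80 on the 14-day CD33 ASO arrays, against 6.25, 6.78 and 6.97 and 6.42, 6.60 and 6.83 on CON ASO arrays at 28 and 14 days. The 2 lowest values came from the arrays with the least Cd33 of each duration, and the groups overlapped otherwise. The slope was 0.45 ± 0.07 (adjusted p = 0.056), and 0.40 without replicate 4 at 28 days. Pearson's r was 0.61 (permutation p = 0.0024) and rho 0.49 (permutation p = 0.017), and r was 0.46 without the 2 farthest arrays. After duration and chip were taken out, r was 0.86.

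Opalin, a membrane protein of myelinating oligodendrocytes, ran over 9.29, 9.64 and 10.45 on the 28-day CD33 ASO arrays and over 9.11, 9.86 and 10.37 on the 14-day CD33 ASO arrays, against 9.18, 9.96 and 10.65 and 9.83, 10.29 and 10.88 on CON ASO arrays at 28 and 14 days. The 28-day CD33 ASO arrays all lay within the CON ASO range of that duration, and 4 of 9 at 14 days lay below theirs. The slope was 0.67 ± 0.13 (adjusted p = 0.088), and 0.60 without replicate 12 at 28 days. Dlg4 had a slope of 0.42 ± 0.08 (adjusted p = 0.073) with the same sign on 6 of 6 chips, and 0.43 ± 0.28 in CON ASO cortex. For Dpm1 the probes disagreed in size, since a second probe detected on all 23 arrays gave 0.09 where the one used gave 0.29.

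**Figure D2:**
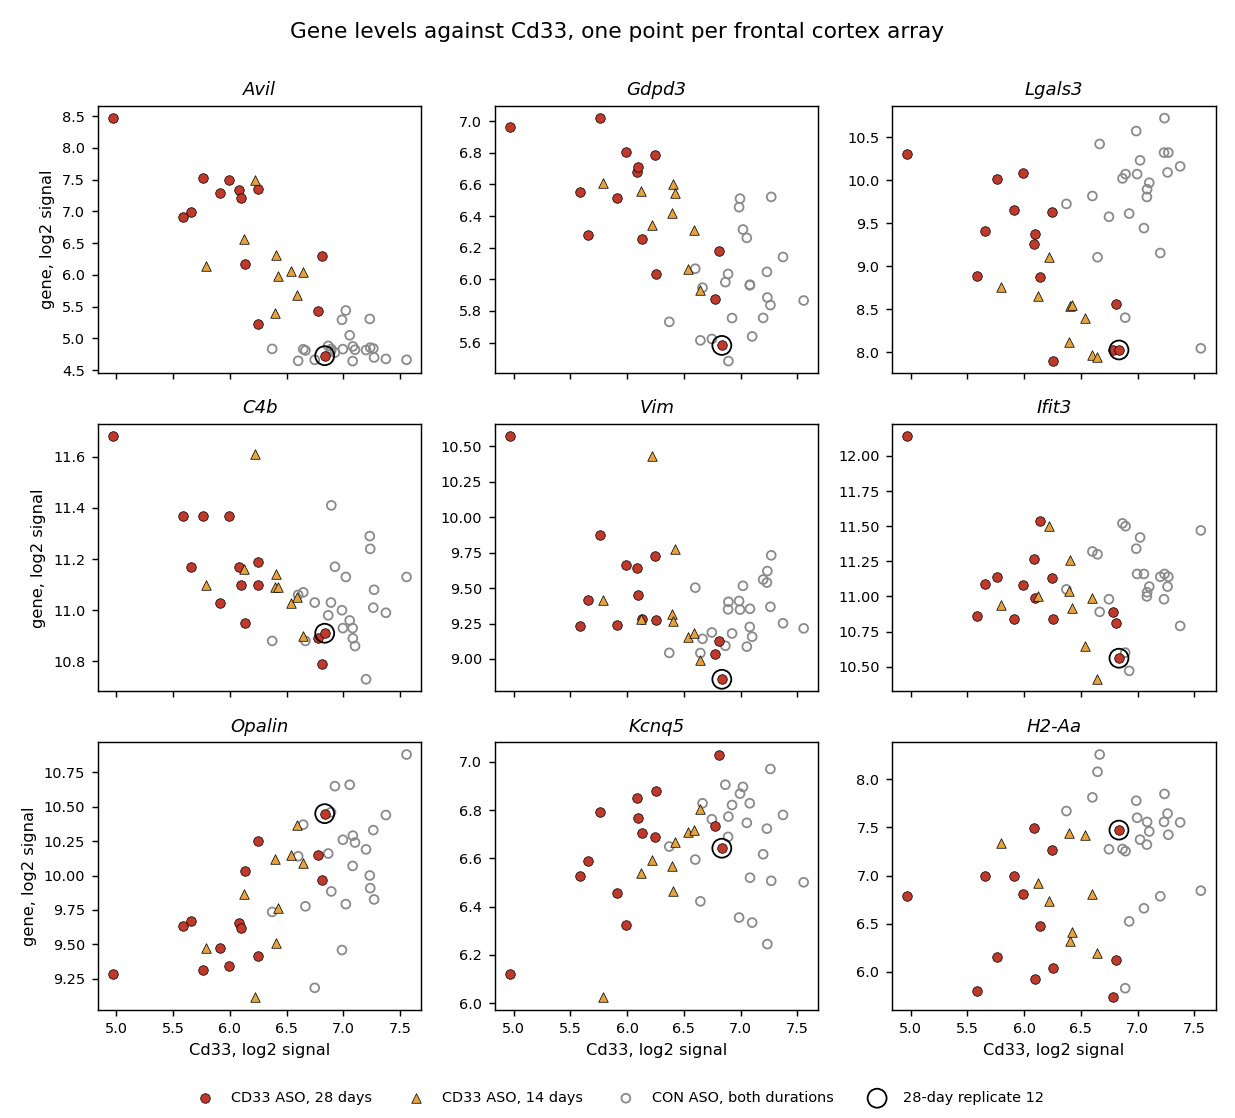
Each panel sets the normalised log2 signal of a gene against that of Cd33, with 1 point for each frontal cortex array of CD33 ASO mice at 28 days (circles) and 14 days (triangles) and of CON ASO mice (open circles), and replicate 12 ringed. Avil, Gdpd3 and Lgals3 are higher where Cd33 is lower among CD33 ASO arrays, Opalin and Kcnq5 are lower, H2-Aa has a slope of -0.03 ± 0.27, and replicate 4, at a Cd33 of 4.97, stands apart for Ifit3 at 12.14.

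Gene lists give the pathways around these genes, each described by the number of tested members at an unadjusted p under 0.05 and its median slope, beside a median of -0.00028 over all 9740 genes. The CON ASO arrays, fitted alone in the same way, had 311 genes with a negative slope at that threshold (3.19%) and 329 with a positive one (3.38%), 0 past an adjusted p of 0.05 in limma (smallest 0.20). Their Cd33 varied less (SD 0.28, against 0.45 over the 23 CD33 ASO arrays), so slopes there carry larger errors. The difference of slopes between CD33 ASO and CON ASO arrays, fitted over all 46, passed for 0 genes in limma (smallest adjusted p 0.49), with 619 at an unadjusted p under 0.05 (6.36%). No list below is therefore shown to be particular to the CD33 ASO.

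All 5 tested complement genes had a negative slope at an unadjusted p under 0.05, with a median of -0.23, against 0 of 5 and a median of 0.04 in CON ASO cortex. C4b, the mouse gene of complement C4, ran over 10.79, 11.13 and 11.68 on the 28-day CD33 ASO arrays, against 10.86, 11.01 and 11.41 on the 28-day CON ASO arrays. At 14 days it ran over 10.90, 11.09 and 11.61 with the CD33 ASO, against 10.73, 11.03 and 11.13 with the CON ASO. The 2 arrays above all CON ASO arrays were replicate 4 at 28 days and replicate 6 at 14 days. Its slope was -0.37 ± 0.08 (adjusted p = 0.11), -0.31 without replicate 4 at 28 days, and 0.18 ± 0.20 in CON ASO cortex.

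The genes of the C1q recognition molecule were slanted the same way with smaller slopes, -0.23 ± 0.08 for C1qc, -0.21 ± 0.08 for C1qa and -0.17 ± 0.08 for C1qb (adjusted p between 0.37 and 0.49). Serping1, the inhibitor of C1, had a slope of -0.23. The count of 5 was 4 without replicate 12 and 4 without replicate 4, but it was 2 without replicate 1, 3 without replicate 5, 6 or 11 (all at 28 days) and 0 over the 14-day arrays alone. It was 1 with the detected share of probes as a covariate.

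Of the 10 tested interferon-stimulated genes, 6 had a negative slope at that threshold and 1, Zbp1, a positive one, with a median of -0.40, against 0 in either direction and a median of 0.22 in CON ASO cortex. Ifit3, an antiviral protein of the interferon response, ran over 10.56, 11.04 and 12.14 on the 28-day CD33 ASO arrays, against 10.47, 11.07 and 11.52 on the 28-day CON ASO arrays, and over 10.41, 10.99 and 11.50 at 14 days with the CD33 ASO, against 10.60, 11.14 and 11.47 with the CON ASO. The groups overlapped, and replicate 4 at 28 days stood apart at the top, with the next CD33 ASO array at 11.54. Its slope was -0.47 ± 0.15 (adjusted p = 0.31), and its 2 other probes gave -0.50 and -0.53.

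Usp18, which removes the ubiquitin-like protein ISG15 from its targets, had a slope of -0.50 ± 0.16, Oasl2 of -0.52 ± 0.18 and Irf7, a transcription factor of the interferon response, of -0.61 ± 0.21 (adjusted p between 0.31 and 0.33). Irf7 was detected on 11 of the 23 arrays. The pattern rested on replicate 4: without it 0 of the 10 had an unadjusted p under 0.05, the list's median was -0.14, and the slope of Ifit3 was -0.22. Without replicate 12 the count was 5.

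Interferon regulatory factors bind an element known as the interferon-stimulated response element, and 2 promoters of this list are shown because letters of that kind lie at different places in them. They run from 250 bases before to 50 bases after the annotated start, on the gene's own strand, from RefSeq on GRCm38.p6, with capitals for each match of GAAANNGAAA or of its reverse complement TTTCNNTTTC. Ifit3 (chr19:34583279-34583578, plus strand) has its matches before the start and Ifitm3 (chr7:141010695-141010994, minus strand) just after it.
Ifit3: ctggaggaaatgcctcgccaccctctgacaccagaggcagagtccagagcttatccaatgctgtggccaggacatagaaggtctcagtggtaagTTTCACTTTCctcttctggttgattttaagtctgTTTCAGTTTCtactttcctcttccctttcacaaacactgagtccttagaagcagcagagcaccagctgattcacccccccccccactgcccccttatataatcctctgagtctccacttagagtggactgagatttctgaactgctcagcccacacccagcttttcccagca
Ifitm3: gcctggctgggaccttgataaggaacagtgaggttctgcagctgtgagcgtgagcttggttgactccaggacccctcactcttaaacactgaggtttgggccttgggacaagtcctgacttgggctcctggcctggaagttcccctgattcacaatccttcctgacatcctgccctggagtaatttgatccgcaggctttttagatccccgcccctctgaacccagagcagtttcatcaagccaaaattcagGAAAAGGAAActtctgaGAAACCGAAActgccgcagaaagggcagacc
Overlapping matches were merged in capitals. Of the 10 tested genes, 7 had a promoter in the table, and 5 of these (Bst2, Ifit3, Ifitm3, Isg15 and Rsad2) held the motif on either strand, against 3.44% of all 32851 promoters of that length. Irf7 and Oasl2 were among the matched genes without these letters in the window. A match describes the letters and is not a measured binding site. The slope of Ifitm3, a membrane protein that blocks virus entry, was -0.27 ± 0.11.

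Reactive astrocyte genes had 5 of 12 members with a negative slope at an unadjusted p under 0.05 and 0 with a positive one, with a median of -0.30, against 0 and 1 and a median of 0.05 in CON ASO cortex. Vim, the intermediate filament vimentin, ran over 8.86, 9.35 and 10.57 on the 28-day CD33 ASO arrays, against 9.04, 9.30 and 9.62 on the 28-day CON ASO arrays, and over 9.00, 9.29 and 10.43 at 14 days with the CD33 ASO, against 9.04, 9.35 and 9.73 with the CON ASO. Replicate 4 at 28 days and replicate 6 at 14 days were the 2 highest, as for C4b. Its slope was -0.54 ± 0.17 (adjusted p = 0.30), and -0.31 without replicate 4.

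Serpina3n, a secreted protease inhibitor of reactive astrocytes, had a slope of -0.63 ± 0.20 and Tspo, the mitochondrial translocator protein used as a marker of gliosis, of -0.33 ± 0.09. For Tspo the slope was -0.22 without replicate 4, and its 2 other probes gave -0.24 and -0.14. Of the 11 genes of astrocyte identity 0 had an unadjusted p under 0.05, with a median of -0.03. The reactive astrocyte count was 4 without replicate 12 and 4 without replicate 4, 3 with no chip term or with the detected share as a covariate, 2 without both of the farthest arrays and 0 over the 14-day arrays alone.

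Of 22 plaque-associated microglial genes, 6 had a negative slope at an unadjusted p under 0.05 and 0 a positive one (median -0.05; in CON ASO cortex 0 and 2, median 0.18). They were Lgals3, Gpnmb, Lyz2, Cd63, Ctsb and Axl, of which Gpnmb (-0.41 ± 0.18) is a glycoprotein of lipid-laden phagocytes, Cd63 (-0.22 ± 0.07) a tetraspanin of endosomes and Lyz2 (-0.23 ± 0.10) lysozyme. Other probes gave -0.16 and -0.08 for Cd63 and -0.40 for Lyz2. The count was 2 without replicate 4, 3 without replicate 1 or replicate 5 at 28 days, 6 without replicate 12 and 3 with the microglial mean or the detected share as a covariate.

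Of the 16 homeostatic microglial genes, 3 had a negative slope at an unadjusted p under 0.05 (Sall1, Sparc and Tmem119, between -0.31 and -0.24) and 0 a positive one. The median was -0.04, with 14 of 16 slopes below 0, and a second Sall1 probe, detected on 16 of 23 arrays, gave -0.04. The receptors P2ry12 and Cx3cr1 had slopes of -0.04 ± 0.16 and -0.03 ± 0.12, and Trem2, the lipid-sensing receptor upstream of TYROBP, -0.04 ± 0.08. In CON ASO cortex the homeostatic median was 0.25, with 0 negative and 2 positive at that threshold. Without replicate 1 at 28 days the CD33 ASO count was 0, and without replicate 2, 5 or 12 it was 1. It was 0 with the detected share as a covariate. It was also 0 with the microglial mean, but that mean is taken over these same genes. Such a covariate takes out the slope they share, so this count is no separate check.

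Of 19 genes of the TYROBP network, 4 had a negative and 1 a positive slope at an unadjusted p under 0.05 in CD33 ASO cortex, against 0 and 4 in CON ASO cortex. The medians were -0.13 in CD33 ASO cortex, with 17 of 19 slopes below 0, and 0.18 in CON ASO cortex, with 6 of 19 below 0. Of the 4 genes, C1qa, C1qb and C1qc also stand in the complement list. The negative count was 1 without replicate 1, 2 without replicate 5 or 12, all at 28 days, and 7 without replicate 7 at 14 days. It was 0 with the detected share as a covariate and 2 with the microglial mean. The difference of slopes had an unadjusted p under 0.05 for 10 of the 19 genes, and none passed adjustment over all genes. Tyrobp itself had slopes of -0.13 (unadjusted p = 0.18) and 0.54 (unadjusted p = 0.0077) in CD33 ASO and CON ASO cortex.

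Plcg2, a phospholipase of microglial signalling and an Alzheimer risk gene, had a slope of -0.33 ± 0.08 (adjusted p = 0.18) in CD33 ASO cortex, with the same sign on 6 of 6 chips, and of 0.17 ± 0.20 in CON ASO cortex. Of the 14 tested Alzheimer risk genes, 2 were negative at the unadjusted threshold, Plcg2 and the lipid transporter Abca7 (-0.21 ± 0.09). Receptor genes besides Cd33 numbered 5, the Siglec genes Siglech and Mag and the inhibitory receptor genes Sirpa, Lilrb4a and Pecam1. With them were listed 3 genes of phosphatases that act below inhibitory receptors (Ptpn6, Ptpn11 and Inpp5d). Of these 8 genes, 0 had an unadjusted p under 0.05 in either direction.

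Myelin genes were slanted the other way, with 3 of 10 positive at an unadjusted p under 0.05, 0 negative and a median of 0.15 (0 and 0, median 0.20, in CON ASO cortex). They were Opalin, Mog (0.32 ± 0.11), a protein of the outer myelin surface, and Mbp (0.16 ± 0.05), the myelin basic protein. The Mbp probes disagreed, since 2 others, both detected on all 23 arrays, gave -0.09 and 0.27. A second Mog probe gave 0.28. Among 6 tested genes of oligodendrocyte precursors, 2 were positive at that threshold, Enpp6 (0.41 ± 0.14), a marker of newly forming oligodendrocytes, and Cspg4 (0.17 ± 0.08), the NG2 proteoglycan. Without replicate 12 at 28 days their slopes were 0.31 and 0.13. The myelin count was 3 without replicate 12 and 3 without replicate 4, 6 with median scaling in place of quantiles and 1 over the 14-day arrays alone.

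Of 12 glucocorticoid-responsive genes, 3 had a negative slope at an unadjusted p under 0.05 (Fkbp5, Plin4 and the sulfotransferase Sult1a1 at -0.43 ± 0.18) and 0 a positive one, against 1 (Tsc22d3, -0.54 ± 0.19) and 0 in CON ASO cortex. Slopes were below 0 for 9 of 12 in CD33 ASO cortex (median -0.16) and for 8 of 12 in CON ASO cortex (median -0.11). The count was 4 without replicate 12 and 0 over the 14-day arrays alone. Fcgr4, an Fc receptor gene, and S100a11, a calcium-binding protein gene, both picked after their values were seen, had slopes of -0.96 ± 0.23 and -0.35 ± 0.09, or -0.61 and -0.25 without replicate 4. Of 3 red blood cell genes and 7 border macrophage genes 0 had an unadjusted p under 0.05. At the same threshold, choroid plexus genes had 1 of 9 negative (Aqp1, -0.78 ± 0.29) and 0 positive, fibroblast and mural genes 1 negative (Dcn) and 2 positive of 10, endothelial genes 1 and 1 of 8, and interneuron genes 0 negative and 2 positive of 9 (Pvalb and Cck). Without replicate 4 the interneuron count was 0, and without replicate 4 or 11 the positive endothelial count was 3. Lysosomal, striatal, cortical excitatory, immediate early and heat shock genes had 0 in either direction, and class I antigen presentation genes 1 of 11 negative (Psmb8). The part of these cell types in the slopes was not tested beyond the covariate fits.

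**Figure D3:**
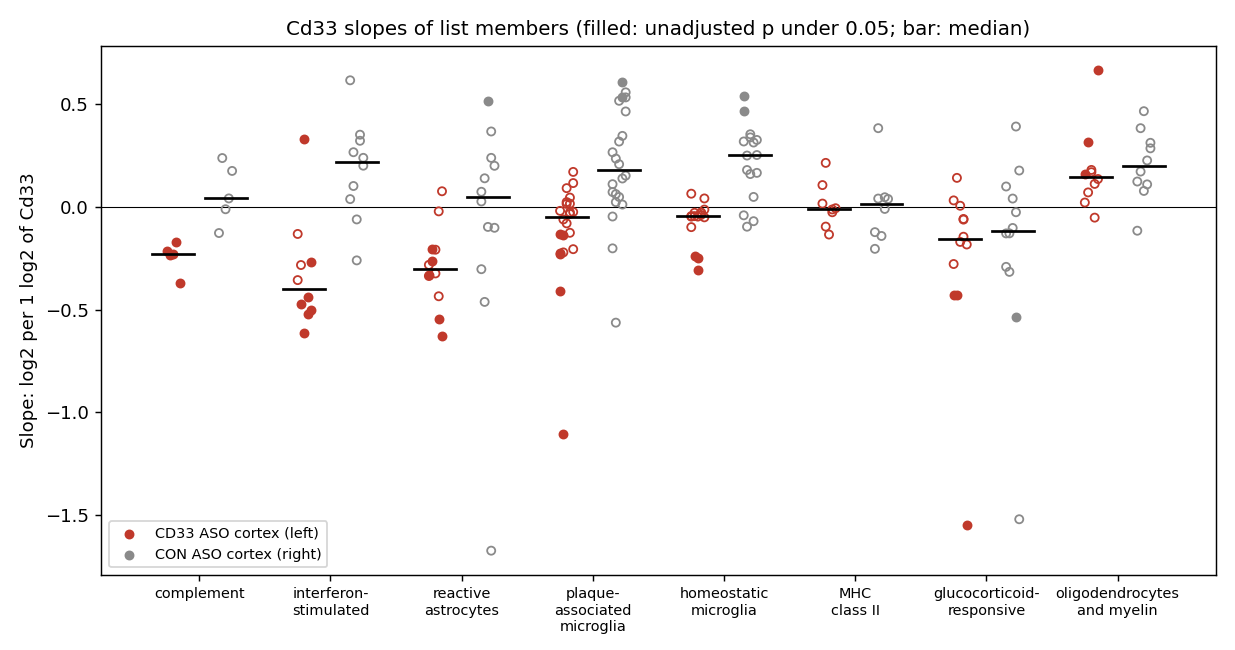
Each point is the Cd33 slope of 1 gene, in log2 per log2 unit of Cd33, within CD33 ASO cortex (left of each pair) and CON ASO cortex (right), filled at an unadjusted p under 0.05, with a bar at the list's median. Complement, interferon-stimulated and reactive astrocyte medians lie below 0 in CD33 ASO cortex, at -0.23, -0.40 and -0.30, and the myelin median lies above 0 in both groups, at 0.15 and 0.20.

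Genes that differ between CD33 ASO and CON ASO cortex had slopes of either sign or near 0. The comparison averaged over durations called 90 of 9741 genes at an adjusted p under 0.05 (0.924%), 36 higher and 53 lower besides Cd33. It shares the 23 CD33 ASO arrays with the slopes, so its values are set beside them and no relation between both is drawn. Of the 28 genes listed as ASO-responsive, a list chosen from earlier results of these data, 9 had a negative slope at an unadjusted p under 0.05 and 3 a positive one, with a median of -0.12. The negative count was 9 without replicate 12 and 4 without replicate 4.

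Avil, Gdpd3, Sh3d21 and Mfap2 were higher with the CD33 ASO and had negative slopes at an unadjusted p under 0.05. Beside Avil these are Gdpd3 (0.43 ± 0.10 higher with the ASO, slope -0.64), Sh3d21 (0.39 ± 0.07 higher, slope -0.50 ± 0.11, adjusted p = 0.13) and Mfap2, a protein of elastic microfibrils (0.31 ± 0.05 higher, slope -0.23 ± 0.10). For Mfap2 a second probe detected on all 23 arrays gave -0.06 and another, detected on 17, gave -0.25. Another 6 of the listed genes were higher with the CD33 ASO and had unadjusted p-values of 0.18 or more for the slope, with slopes of -0.13 for Gpld1, -0.07 for Emc1, -0.04 for Dctn4, -0.03 for Tcf7l1, -0.0084 for Nek3 and 0.02 for Czib. Sh3d21 ran over 6.78, 7.46 and 8.15 on 28-day CD33 ASO arrays, against 6.59, 6.80 and 7.24 on 28-day CON ASO arrays. Fpr2, a formyl peptide receptor of phagocytes, had a slope of -0.58 ± 0.20 (-0.27 without replicate 4), and an ASO difference of 0.37 ± 0.11 that did not pass here (adjusted p = 0.079). Its mean log2 signal on the CD33 ASO arrays was 5.75, close to background.

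Fyco1, Dnajc10 and Srrm2 were lower with the CD33 ASO and lay lower where less Cd33 remained. They encode a kinesin adaptor of late endosomes and autophagosomes (Fyco1, -0.48 ± 0.06, slope 0.28 ± 0.09), a reductase of the endoplasmic reticulum that helps misfolded proteins leave it (Dnajc10, -0.27 ± 0.04, slope 0.28 ± 0.07) and a component of the spliceosome (Srrm2, -0.27 ± 0.06, slope 0.32 ± 0.08). Their slopes had adjusted p-values between 0.17 and 0.29.

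Lgals3, Gpnmb, Lyz2 and Apod were lower with the CD33 ASO and had negative slopes. For Lgals3 the ASO difference was -0.92 ± 0.17 (adjusted p = 0.0018) and the slope -1.11, and for Gpnmb -0.95 ± 0.12 (adjusted p = 2e-06) and -0.41. Gpnmb ran over 9.08, 9.60 and 10.44 on the 28-day CD33 ASO arrays, against 10.21, 10.73 and 11.33 on the 28-day CON ASO arrays. At 14 days it ran over 8.95, 9.20 and 10.38 with the CD33 ASO, against 9.19, 10.13 and 11.21 with the CON ASO. The slope of Gpnmb was -0.27 without replicate 4, and its second probe, detected on 7 of 23 arrays, gave -0.15. Lyz2 (ASO difference -0.38 ± 0.07) had -0.23 and Apod, a lipid-binding lipocalin, had an ASO difference of -0.30 ± 0.06 and a slope of -0.28 ± 0.09, or -0.19 without replicate 4.

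The class II antigen presentation genes were lower with the CD33 ASO. H2-Aa, H2-Ab1, H2-Eb1 and the invariant chain Cd74 had ASO differences between -0.61 and -0.46 (adjusted p between 0.0045 and 0.029), while their slopes lay between -0.09 and 0.11 with SEs from 0.19 to 0.27. Of the 8 tested genes of the class, 0 had a slope at an unadjusted p under 0.05, and the median was -0.01. Fcna and Ms4a7, genes of border macrophages and monocytes with ASO differences of -0.87 ± 0.11 and -0.67 ± 0.10, had slopes of -0.19 ± 0.17 and -0.22 ± 0.17. Fcna averaged 5.60 on the CD33 ASO arrays, close to background, so its slope there says little. Vwf, Lyz1, Ms4a6d and Lum were also lower with the CD33 ASO, with slopes of 0.18, -0.16, -0.16 and -0.11 and unadjusted p-values between 0.081 and 0.54.

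**Figure D4:**
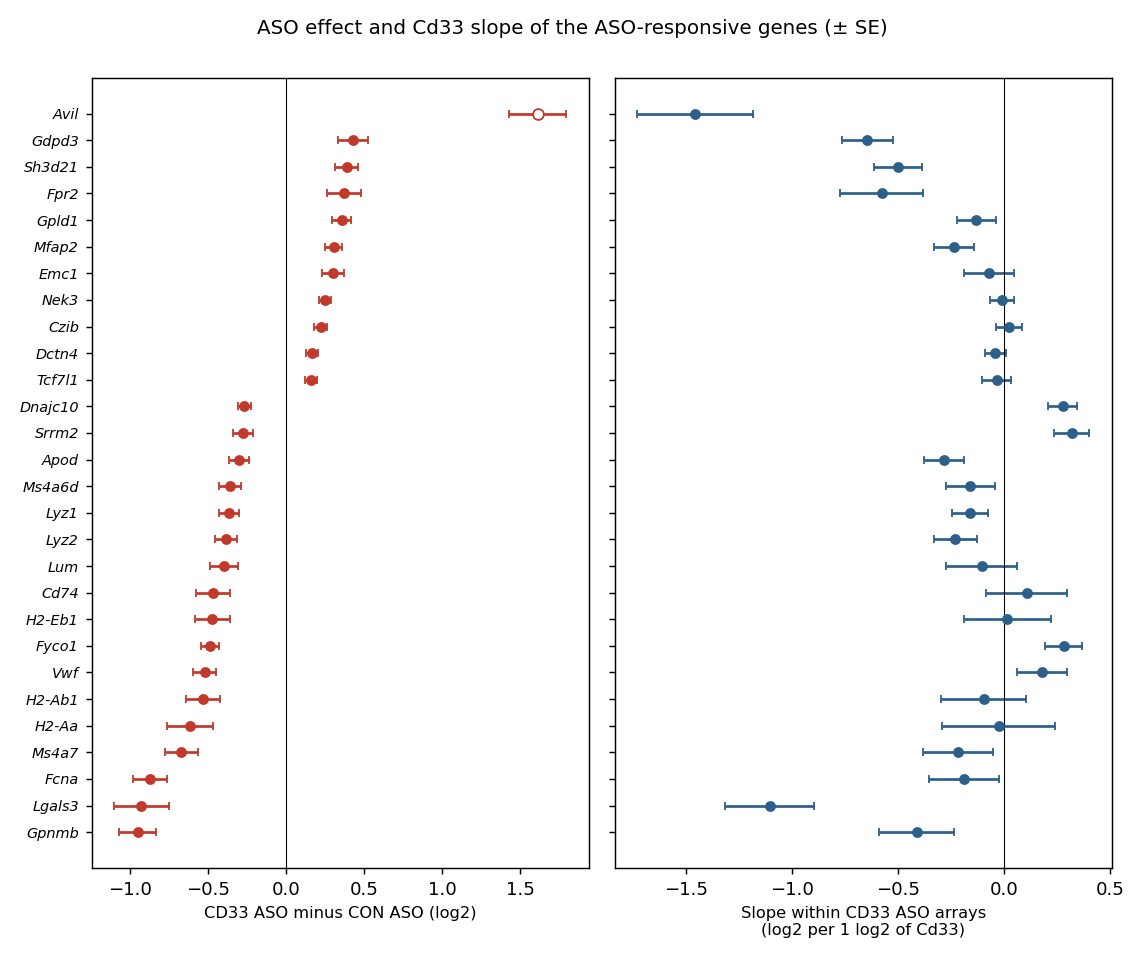
The left panel gives the log2 difference of CD33 ASO minus CON ASO cortex and the right panel the Cd33 slope within CD33 ASO cortex for the 28 listed genes, each with its SE. Avil is drawn open on the left, where its CON ASO signals are at background and only a bound can be read, and lies at -1.46 on the right. Lgals3 and Gpnmb lie below 0 in both panels, and the 4 class II genes lie below 0 on the left and within an SE of 0 on the right.

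The same question was put to the 22 hippocampal arrays of CD33 ASO mice, most of them from the same animals but separate tissue and arrays. Hippocampal Cd33 ran over 4.64, 5.07 and 6.58 and was detected on 3 of 22 arrays. In limma 0 genes passed (smallest adjusted p 0.052, 12 under 0.10), with 429 negative (4.4%) and 529 positive (5.43%) at an unadjusted p under 0.05. Of the 20 genes of smallest p in the cortex, 17 had the same sign in the hippocampus, against 76.87% of the 951 genes at an unadjusted p under 0.05 and 59.98% of all 9740 genes, and 21 animals are shared between the tissues. In CON ASO cortex, other animals, 15 of the 20 had the same sign, against 50.79% of the 951 and 50.22% of all 9740. Only 1 of the 15 reached an unadjusted p under 0.05 there in limma. The 15 include Avil, whose CON ASO slope is not read. In the hippocampus 11 of the 17 reached an unadjusted p under 0.05 there, as did 184 of the 951 genes and 728 of all 9740 with the same sign in both tissues. Genes of the 20 that did not reach it in the hippocampus included Kcnq5 (0.16 ± 0.14), Dlg4 (0.03 ± 0.12) and Dpm1, whose sign differed (-0.01 ± 0.07).

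Avil had the smallest hippocampal p, with a slope of -1.57 ± 0.26 (adjusted p = 0.052), and Opalin followed the same direction as in the cortex at 0.89 ± 0.17 (adjusted p = 0.069). Lgals3 had -0.88 ± 0.28, Fkbp5 -0.41 ± 0.09, C4b -0.45 ± 0.16 and Sh3d21 -0.46 ± 0.12. Of the 10 myelin genes 9 were positive at the unadjusted threshold, of the 5 complement genes 4 were negative, and of the 10 interferon-stimulated genes 3 were negative. Replicate 12 is among the animals of this set too, with the highest hippocampal Cd33, and the hippocampal fit without it was not run.

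**Figure D5:**
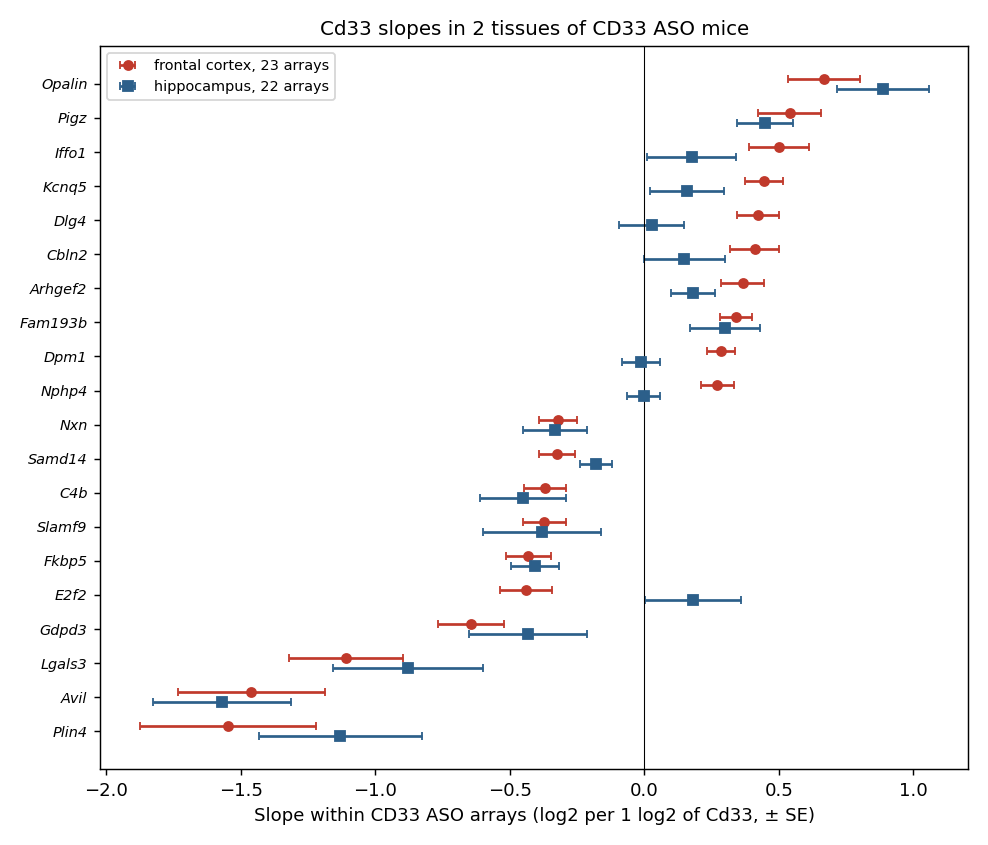
The points give the Cd33 slopes of the 20 genes of smallest p in CD33 ASO cortex, with SE, in the frontal cortex (circles) and in the hippocampus (squares) of CD33 ASO mice. Slopes share their sign for 17 of 20 genes, E2f2, Dpm1 and Nphp4 being the others, and Avil (-1.46 and -1.57) and Opalin (0.67 and 0.89) are alike in both.

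Cortical genes were also set against the hippocampal Cd33 of the same animal, a measure of Cd33 from another array (n = 21). This fit shares its cortical arrays with the slopes on cortical Cd33. Replicate 12 at 28 days is among its animals, with the highest hippocampal Cd33 (6.58), and the fit without it was not run. Of 9740 genes, 0 passed in limma (smallest adjusted p 0.24) and 787 had an unadjusted p under 0.05 (8.08%). Avil had a slope of -1.45 ± 0.25, Lgals3 of -1.05, Gdpd3 of -0.54, Plin4 of -1.48 and Opalin of 0.66, and complement genes numbered 3 of 5 at the unadjusted threshold. Kcnq5 and Dlg4 had slopes of 0.22 (unadjusted p = 0.053) and 0.16 (unadjusted p = 0.16).

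The slopes did not differ between durations for any gene past adjustment, with 498 genes at an unadjusted p under 0.05 for the slope at 28 minus that at 14 days and a smallest adjusted p of 0.55 in limma. The 14-day arrays cover less of the Cd33 range (SD 0.27, n = 9, against 0.52, n = 14, at 28 days). For the difference between CD33 ASO and CON ASO slopes, the 5 genes of smallest p were Plscr4, Rusc1, Nfat5, Ttpal and Atp1b3, with differences of -0.74, 0.60, -0.45, 0.55 and -0.36 (adjusted p 0.49 to 0.60). The 2 other Ttpal probes gave CD33 ASO slopes of -0.01 and 0.08, where the one used gave 0.11. The 5 of smallest p in CON ASO cortex were Aldh1l2, Smpdl3a, Hsd11b1, Cercam and Birc5. Their CON ASO slopes were 1.13, 0.60, 0.77, 0.78 and -1.12, while in CD33 ASO cortex they lay between -0.25 and 0.17.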

How the data were processed

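RNA of mouse brain tissue was measured on Illumina bead arrays, 90 in all. The authors' deposited probe table gives, per the file headers, a signal intensity and a detection p-value for 25697 probes, with no normalization between arrays. A second deposited table holds the authors' processed log2 values for 19542 probes, in the same rank order within each array, and its processing step is not given in the sources used here. It served as an alternative. BeadStudio, GenomeStudio and Partek are named per the submitters' processing notes, with versions not given in the sources used here.

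In R 4.3.3, the neqc function (limma 3.58.1) corrected background from detection p-values with an offset of 16 and set all 90 arrays to common quantiles on a log2 scale. Probes with a detection p-value under 0.01 on at least 9 arrays were kept, and the probe of highest mean stood for a gene, which left 9741 genes, Cd33 included. Of the probes, 18348 had 1 gene symbol and 7349 none. Slopes on Cd33 were fitted with lmFit and eBayes, with duration and chip as covariates, and p-values were adjusted by Benjamini-Hochberg over 9740 genes, two-sided. The difference between ASOs used 4 group means, chip and a slope per ASO, so it need not equal the difference of separate fits. The ASO comparison averaged both durations. Permutation p-values used 100000 permutations, shuffled all arrays together without regard to duration or chip, and are two-sided. The fit was tested on simulated data with known slopes.

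The samples, lists and tests were chosen with earlier results of these data known. The genes printed were drawn from the 10 of smallest p in each direction, the 5 of smallest p for the difference and for the CON ASO slope, the 2 members of smallest p in each list, as no member passed adjustment, and all genes of the ASO-responsive list, and not every smallest-p list member is printed. C1qa, C1qb, Oasl2, Irf7, Fcgr4, S100a11, Mbp, Serpina3n, Sult1a1, Tmem119, P2ry12, Cx3cr1, Trem2, Tsc22d3, Tyrobp, Serping1, Zbp1, Ctsb, Axl, Ifitm3, Siglech, Sirpa, Pecam1, Ptpn6, Ptpn11 and Inpp5d were added after their values were seen. Precision is limited by the number of arrays. Alternatives covered the processed values, scaling, background, filters, covariates, weights, single durations and each array left out.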

Additional observations from a re-analysis of the deposited data

Results flagged for a closer look

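Within the 9 CD33 ASO arrays of 14 days, 27 genes were checked for a single array far from the rest by Dixon's test, and 4 had one. Many of these genes were picked by their relation to Cd33 on these same arrays, and the 4 fell on replicates 6 and 7 alone. The number is therefore not set against a chance rate. C4b was 11.61 on replicate 6, against a next highest value of 11.16 and a median of 11.09. Gpnmb was 10.38 on the same array, next highest 9.56, median 9.20. Kcnq5 was 6.02 on replicate 7, against a next lowest value of 6.47 and a median of 6.59. Nphp4 was 8.98 on replicate 7, next lowest 9.28, median 9.31. Replicate 7 had the least Cd33 of the 14-day arrays, at 5.79. Of the 23 fits that left out 1 array each, the one without it gave Nphp4 its largest unadjusted p in limma, 0.00176.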

How the results depend on the processing

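The count of genes past an adjusted p of 0.05 in limma, 0 as reported, was 8 with median scaling, 9 with no background correction, 3 with no duration term, 3 with array weights, 1 with the filter set on the 23 arrays and 1 with blood, choroid plexus and fibroblast means as covariates. With median scaling the calls were Avil, Gdpd3, Lgals3, Kcnq5, Fam193b, Dpm1, Dlg4 and Opalin, and without background correction Fkbp5 joined them. It was 0 with the authors' processed values, no filter, no chip term, the 2 farthest arrays left out, either duration alone, ranks, the microglial mean or detected share as a covariate, and hippocampal Cd33. Leaving out each array gave 0 to 6 calls, with 6 and 4 without replicates 5 and 3 at 14 days, 3 without replicate 2 and 1 each without replicates 7, 10 and 13 at 28 days.

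At an unadjusted p under 0.05 the count was 617 over the 14-day arrays alone, fitted without a chip term, and 682 to 1078 with each array left out. With a replicate block the counts were 0 and 950, against 0 and 951. The numbers were not treated as pairs, since same-numbered arrays of both durations correlated between -0.13 and 0.33 and 1 of 9 matched its own number best, and the block changed no call of the slope difference either. That difference had 165 calls with no chip term and 0 in its other settings.

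Of 62 named genes at an unadjusted p under 0.05, some slopes turned sign. In the 14-day arrays alone, fitted without a chip term, these were Fkbp5 (0.092), Sall1 (0.12), Cd63 (0.021), Slc2a1 (0.00046) and Tmem119 (0.00056). On hippocampal Cd33 it was Cck (-0.0072). All 62 kept their sign with any 1 array left out, but they were picked for their p on these same arrays, so that is no support. Of the 49 named genes at an unadjusted p of 0.05 or above in limma, 32 turned sign in some setting. The causes were not tested. A fit on the second Cd33 probe was not run, as no array detected it. Cd33 lies near background on several arrays, which limits how well the order of the lowest arrays is known.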
